A study of Mus musculus with 8 samples.

Results

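Slc4a7 and 8 other genes of bicarbonate, lactate and proton transport were followed in fibroblast lines with and without SLMAP3: Slc4a2, Slc4a3, Slc4a4, Slc4a8, Slc16a1, Slc16a3, Car9 and Car12. They were taken by gene name from the 55401 genes of the deposited gene count table, and all 9 were found. Each passed the filter on low counts that left 15461 genes for testing. Slc4a7 was selected on its difference between SLMAP3-/- and wild-type (WT) lines in these same libraries, so its values in that comparison are given as a description with no test, and the other 8 genes were set beside it as acid-base genes.

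The libraries came from 8 lines of immortalized mouse embryonic fibroblasts (MEFs), 4 of them SLMAP3-/- and 4 WT, each line grown from a different embryo of strain B6C3F1 collected at E14.5. The knockout removed Slmap sequence at exon 3 by Cre recombination of a floxed allele, with Cre driven by the CMV promoter, so that the whole embryo and not a chosen cell type carried the deletion. Cells were obtained from bodies without head and organs, cultured in DMEM with serum, and immortalized by transfection of SV40 large T antigen. That antigen was present in the WT lines as well, and the labels name no other treatment. Poly(A) RNA of each line gave 1 library, and the spread within a genotype is therefore the spread between lines of separate embryos.

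Cells that make acid by metabolism keep their cytosol close to neutral by importing bicarbonate and by exporting protons or lactate with a proton. Sodium-coupled bicarbonate transporters of the Slc4 family load bicarbonate into the cell, anion exchangers of the same family trade bicarbonate for chloride, monocarboxylate transporters carry lactate together with a proton, and membrane-bound carbonic anhydrases interconvert carbon dioxide and bicarbonate at the cell surface. Slc4a7 encodes NBCn1, an electroneutral sodium bicarbonate cotransporter that takes part in acid extrusion in many cell types, fibroblasts included.

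Slc4a7 lies on the plus strand of chromosome 14 at 14702279 to 14799940 (GRCm38), and 25 transcripts of it are annotated, of which 1 is labelled protein-coding. No other annotated gene overlaps it. Because counts were assigned by sequence, a stretch of coding sequence around the longest run of letters that Slc4a7 shares with Slc4a8 is shown here with the matching stretches of the other Slc4 members, to let their similarity be read directly. In each line of letters capitals mark bases identical to Slc4a7 over 60 coding bases aligned without gaps, 5′ to 3′ on the plus strand of GRCm38. The Slc4a7, Slc4a8 and Slc4a4 stretches each join the end of exon 4 to the start of exon 5 of a 25-exon transcript (chr14:14737470-14737507 with chr14:14738184-14738205, chr15:100783885-100783922 with chr15:100784715-100784736, and chr5:89028391-89028428 with chr5:89038451-89038472). Those of Slc4a3 and Slc4a2 lie within exon 8 of a 23-exon transcript (chr1:75550785-75550844 and chr5:24432792-24432851).
Slc4a7: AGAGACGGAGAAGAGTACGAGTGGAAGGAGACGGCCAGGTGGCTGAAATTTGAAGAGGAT
Slc4a8: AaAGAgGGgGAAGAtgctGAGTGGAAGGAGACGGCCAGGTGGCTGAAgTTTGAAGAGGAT
Slc4a4: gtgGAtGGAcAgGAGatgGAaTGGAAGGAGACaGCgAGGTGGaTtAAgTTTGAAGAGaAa
Slc4a2: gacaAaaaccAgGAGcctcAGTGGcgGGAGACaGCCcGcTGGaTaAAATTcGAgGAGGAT
Slc4a3: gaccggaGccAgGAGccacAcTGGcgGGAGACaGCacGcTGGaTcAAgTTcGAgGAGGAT

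Over these 60 bases Slc4a8 had 52 bases identical to Slc4a7 and Slc4a4 had 43, while the anion exchangers Slc4a2 and Slc4a3 had 37 and 34. The count for Slc4a8 follows from the choice of the stretch, and the longest runs shared with the other 3 genes lie elsewhere in the coding sequence. The longest exact run of letters shared with any Slc4a7 transcript was 29 bases in Slc4a8, 22 in Slc4a4, 16 in Slc4a3 and 15 in Slc4a2. Whole coding sequences were of like length, with 3393 bases in Slc4a7, 3267 in Slc4a8, 3282 in Slc4a4, 3711 in Slc4a2 and 3681 in Slc4a3.

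Total estimated counts ran from 50952494 to 59854680 in the SLMAP3-/- lines and from 49879059 to 63322486 in the WT lines. The fibroblast label was checked against 8 markers, among them Col1a1, Col1a2, Fn1 and Vim, which all passed the filter and summed to between 15704 and 23446 CPM in every line, where CPM is the count of a gene relative to the total count of its line after TMM scaling. Less abundant markers of the list varied between lines. Pdgfra ran from 17.4 CPM in WT line 1 to 179 CPM in SLMAP3-/- line 1, and Thy1 from 26.2 CPM in WT line 2 to 204 CPM in SLMAP3-/- line 3. Several defining markers of other cell types were at or near 0, such as Pecam1 (at most 0.227 CPM), Ptprc (at most 0.180 CPM), Krt5 (at most 0.0800 CPM) and Myod1 (0 in all 8 lines). Others were higher, such as the neural marker Tubb3 at 14.7 ± 5.21 CPM in SLMAP3-/- and 13.7 ± 3.67 CPM in WT. The neural marker Rbfox3 was at 2.20 ± 0.526 and 1.85 ± 0.587 CPM, and the blood marker Cd68 at 3.24 ± 1.23 and 2.50 ± 0.407 CPM. The endothelial list summed to 16.5 to 40.5 CPM in SLMAP3-/- lines and 9.45 to 27.5 CPM in WT lines, nearly all of it from Kdr and Tek, and the part of such cells in the values below was not tested. The epithelial list summed to 0.848 to 1.53 against 0.580 to 2.08 CPM, the blood list to 2.56 to 5.50 against 2.16 to 3.62 CPM, the muscle list to 0.659 to 1.18 against 0.445 to 1.06 CPM and the neural list to 13.6 to 25.7 against 11.8 to 19.5 CPM. In bulk RNA of this kind, fewer cells expressing a gene and less RNA per cell cannot be told apart.

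Slmap, the targeted gene on the minus strand of the same chromosome (26413168 to 26534931), was read first as a check of the labels. Its count covers all Slmap transcripts and not the deleted exon alone. Slmap stood at 44.3, 32.7, 36.3 and 39.7 CPM in SLMAP3-/- lines 1 to 4 and at 124, 139, 143 and 141 CPM in WT lines 1 to 4. The 2 genotypes were far apart, with a log2 fold change of -1.84 (SE 0.11, adjusted p = 0.00119 in the edgeR quasi-likelihood test, Benjamini-Hochberg across the 15461 genes). Slmap was the 1 gene of 15461 called at an adjusted p under 0.05 (0.00647% of tested genes), and 0 of the 8 members other than Slc4a7 were called. At an unadjusted p under 0.05 the same test listed 280 genes, and 1 of those 8 members, Slc4a4, was among them. DESeq2 called 0 of these 8 members as well, with 1 of them under 0.05 unadjusted, and limma-voom called 0 with 0 under 0.05.

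Slc4a7 transcripts were lower in every SLMAP3-/- line than in any WT line. Slc4a7 measured 63.8, 63.6, 73.5 and 65.3 CPM in SLMAP3-/- lines 1 to 4, and 97.7, 79.5, 86.4 and 94.2 CPM in WT lines 1 to 4. The highest knockout line therefore stayed below the lowest WT line, and line 3 was the highest of the knockouts. Group means were 66.6 ± 4.69 CPM (SD, n = 4) in SLMAP3-/- and 89.4 ± 8.16 CPM (SD, n = 4) in WT, which puts the knockout mean at 74.4% of the WT mean and the log2 fold change at -0.43 (SE 0.092). These values rested on 3179 to 6059 estimated counts per line.

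Slc4a7 was the only one of the 9 members whose CPM values did not overlap between genotypes, and 0 members were without overlap in the higher direction. Over all tested genes, 82 were lower in every SLMAP3-/- line than in any WT line (0.53%) and 112 were higher (0.724%). As Slc4a7 was chosen by this contrast, its place among those genes is not evidence of its own. The spread of Slc4a7 between lines of 1 genotype was small. Its pooled within-genotype SD of log2 CPM was 0.117, at percentile 11.1 of all tested genes, whose median was 0.275. That SD comes from the values on which Slc4a7 was selected, and such a selection favours a small spread, so it is a description only. Slc4a2 also lay below that median at 0.200, Slc4a3 lay at it (0.276), and the other 6 members lay between 0.454 and 1.20.

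**Figure D1:**
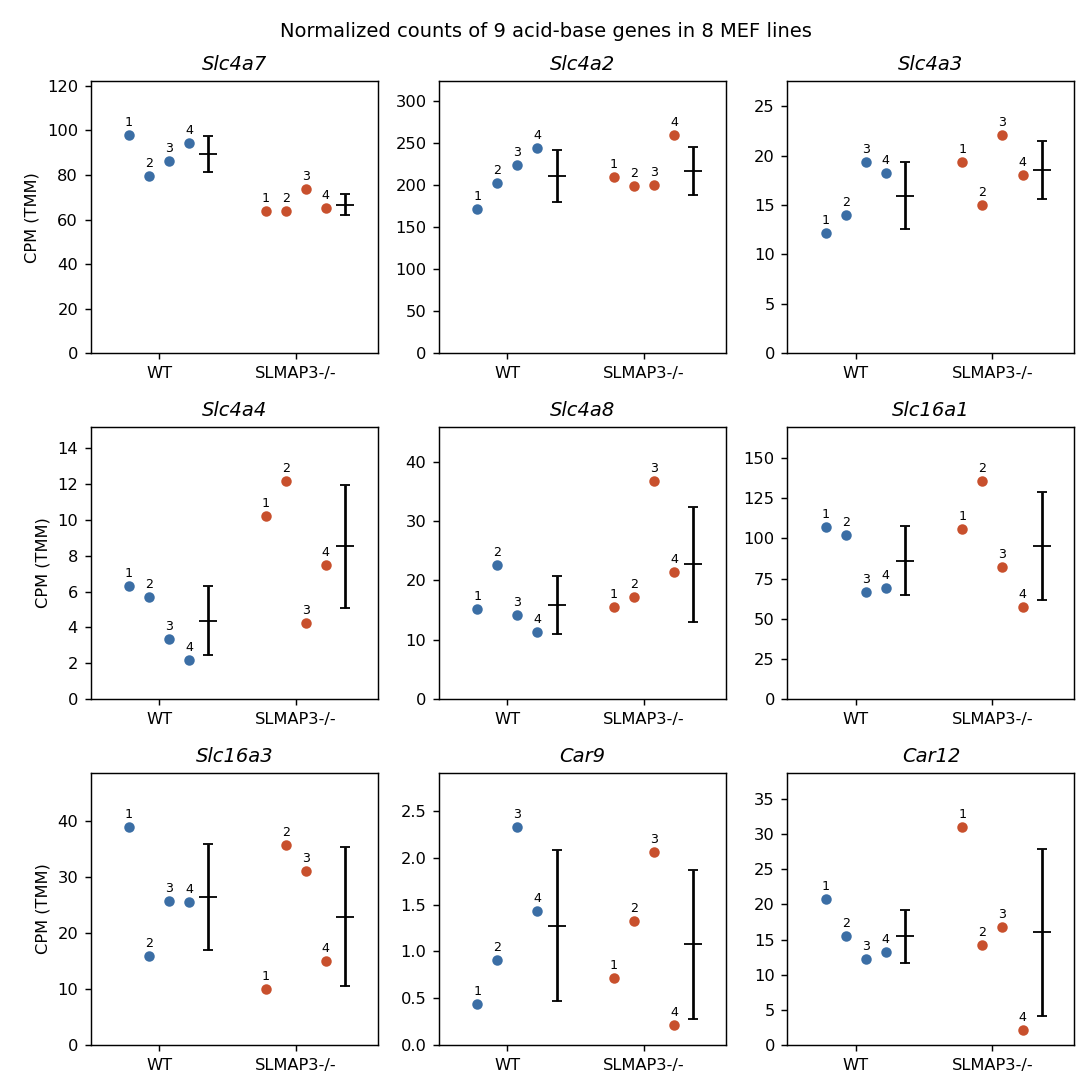
CPM after TMM scaling (vertical axes, each starting at 0) of the 9 genes in WT (blue) and SLMAP3-/- (orange) lines; numbers are line numbers and the bars beside each group show the mean with 1 SD (n = 4). Slc4a7 is the one panel without overlap (63.6 to 73.5 against 79.5 to 97.7 CPM), whereas Car12 in SLMAP3-/- lines runs from 2.09 to 31.0 CPM.

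The other sodium-coupled members were Slc4a4 and Slc4a8, and both had higher mean CPM in the SLMAP3-/- lines, opposite in sign to Slc4a7, with overlapping lines. Slc4a4 encodes NBCe1, an electrogenic sodium bicarbonate cotransporter best known from kidney and pancreas. Its values were 10.2, 12.1, 4.26 and 7.48 CPM in SLMAP3-/- lines 1 to 4 and 6.32, 5.67, 3.35 and 2.19 CPM in WT lines 1 to 4. Lines 1, 2 and 4 of the knockouts lay above the highest WT line, and line 3 lay inside the WT range. The means of Slc4a4 were 8.52 ± 3.43 CPM in SLMAP3-/- and 4.38 ± 1.94 CPM in WT (SD, n = 4 each). Its log2 fold change was 0.96 (SE 0.42, 95% interval 0.0087 to 1.91) and its adjusted p was 1.00 in the edgeR quasi-likelihood test over all genes, so the difference did not pass.

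Slc4a8 encodes NDCBE, a sodium-driven exchanger of chloride for bicarbonate known mainly from neurons. It was counted at 15.6, 17.1, 36.7 and 21.5 CPM in SLMAP3-/- lines 1 to 4 and at 15.2, 22.7, 14.2 and 11.4 CPM in WT lines 1 to 4. Only line 3 of the knockouts rose above the WT range. The log2 fold change of Slc4a8 was 0.52 (SE 0.31, 95% interval -0.19 to 1.23, edgeR adjusted p = 1.00). Without SLMAP3-/- line 3, the log2 fold change was 0.19.

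To compare levels between genes, CPM was divided by the length of the merged exons of each gene. On that scale Slc4a7 made up most of the sodium-coupled Slc4 transcripts in every line, and its share was lower in the knockouts. Slc4a7 accounted for 66.2%, 63.2%, 60.1% and 64.7% of the summed CPM per kb of Slc4a7, Slc4a4 and Slc4a8 in SLMAP3-/- lines 1 to 4, and for 78.6%, 69.8%, 80.3% and 85.2% in WT lines 1 to 4. The shares did not overlap, which follows in part from the way Slc4a7 was selected, so no test is given. Mean shares were 63.5 ± 2.63% in SLMAP3-/- and 78.4 ± 6.43% in WT (SD, n = 4). Slc4a4 took 11.8 ± 5.35% against 5.33 ± 2.12%, and Slc4a8 took 24.7 ± 7.40% against 16.2 ± 4.87%.

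The summed level of the 3 sodium-coupled genes is given as a description, since Slc4a7 is the main part of it. The sum was 6.91 ± 0.770 CPM per kb in SLMAP3-/- and 7.51 ± 0.479 CPM per kb in WT, where SLMAP3-/- lines 1, 2 and 4 at 6.34, 6.62 and 6.63 lay below the WT range of 7.08 to 8.18 and line 3 at 8.05 lay inside it. With the longest annotated transcript as the length, the sum was 11.2 ± 1.02 CPM per kb in SLMAP3-/- and 12.9 ± 0.840 CPM per kb in WT, and 3 of the 4 knockout lines again lay below all WT lines. On that length Slc4a7 took 73.3 ± 1.76% in SLMAP3-/- and 85.3 ± 4.84% in WT, again without overlap (71.2 to 75.1% against 78.8 to 90.3%).

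**Figure D2:**
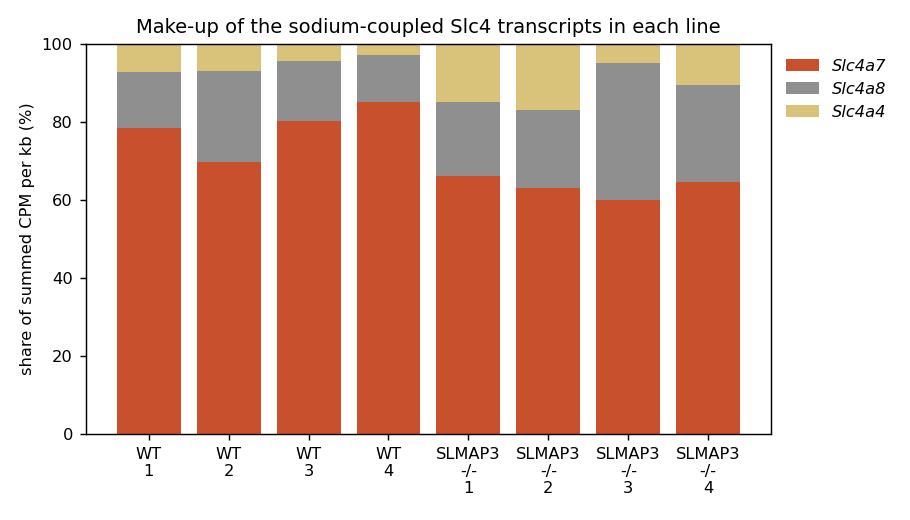
Stacked bars give each line's share (%, vertical axis from 0) of the summed CPM per kb of merged exon of Slc4a7, Slc4a8 and Slc4a4, for WT lines 1 to 4 and SLMAP3-/- lines 1 to 4. Slc4a7 fills 69.8 to 85.2% of the bar in WT and 60.1 to 66.2% in SLMAP3-/- lines.

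The chloride/bicarbonate exchangers Slc4a2 and Slc4a3, which carry bicarbonate out of the cell and so load acid, did not separate the genotypes. Slc4a2, encoding the widespread exchanger AE2, was at 209.9, 198, 199 and 259 CPM in SLMAP3-/- lines 1 to 4 and at 172, 203, 224 and 244 CPM in WT lines 1 to 4. Both groups covered nearly the same range, with a log2 fold change of 0.041 (SE 0.14, 95% interval -0.27 to 0.35, edgeR adjusted p = 1.00). Slc4a3, encoding AE3 of heart and brain, was at 19.3, 14.9, 22.0 and 18.0 CPM in the knockouts and 12.2, 14.0, 19.3 and 18.2 CPM in WT, which gave a log2 fold change of 0.22 (SE 0.19, 95% interval -0.20 to 0.64, edgeR adjusted p = 1.00). The summed CPM per kb of both exchangers was 28.2 ± 3.42 in SLMAP3-/- and 27.2 ± 4.08 in WT (SD, n = 4). Fastk and Gm22333 overlap Slc4a2 on the opposite strand, and since the use of strand in counting was not stated, reads of these genes may not be fully separate.

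The lactate transporters varied more between lines than between genotypes. Slc16a1 encodes MCT1, which moves lactate with a proton in either direction. Its values were 106, 136, 82.5 and 57.4 CPM in SLMAP3-/- lines 1 to 4 and 107, 102, 66.5 and 69.2 CPM in WT lines 1 to 4. SLMAP3-/- lines held both the highest and the lowest value. The log2 fold change of Slc16a1 was 0.14 (SE 0.27, 95% interval -0.48 to 0.77, edgeR adjusted p = 1.00), and without SLMAP3-/- line 2 it was -0.071. Gm43581 and Gm43585 overlap Slc16a1 on the same strand, so reads of these genes may not be fully separate.

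Slc16a3 encodes MCT4, the lactate exporter of strongly glycolytic cells. It was at 10.1, 35.7, 31.1 and 15.0 CPM in SLMAP3-/- lines 1 to 4 and at 39.0, 15.9, 25.7 and 25.5 CPM in WT lines 1 to 4. Values spread 3.55-fold among the knockouts and 2.45-fold among WT lines. The log2 fold change was -0.21 (SE 0.42, 95% interval -1.17 to 0.75, edgeR adjusted p = 1.00), and without SLMAP3-/- line 1 it was 0.038 and without WT line 1 it was 0.041. Bsg, which encodes the chaperone basigin that brings MCT1 and MCT4 to the membrane, was close in both genotypes at 546 ± 34.5 CPM in SLMAP3-/- and 549.8 ± 19.2 CPM in WT.

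The carbonic anhydrase genes were the most variable members. Car9, a gene induced in hypoxia, was at 0.710, 1.32, 2.06 and 0.211 CPM in SLMAP3-/- lines 1 to 4 and at 0.435, 0.909, 2.33 and 1.43 CPM in WT lines 1 to 4. Its estimated counts were only 11 to 128 per line, and its log2 fold change of -0.24 had a 95% interval from -1.84 to 1.35 (SE 0.70, edgeR adjusted p = 1.00). A change of this size was not detectable at this depth and spread. The sign of the Car9 log2 fold change turned without SLMAP3-/- line 4 (0.097) and without WT line 3 (0.22). Gm12454 overlaps Car9 on the opposite strand.

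Car12 was at 31.0, 14.2, 16.7 and 2.09 CPM in SLMAP3-/- lines 1 to 4 and at 20.8, 15.5, 12.3 and 13.3 CPM in WT lines 1 to 4. The knockouts spread 14.8-fold and the WT lines 1.70-fold, because SLMAP3-/- line 1 was the highest and SLMAP3-/- line 4 the lowest of all 8. The group means nevertheless lay close, at 16.0 ± 11.9 and 15.5 ± 3.80 CPM, with a log2 fold change of 0.052 (SE 0.61, 95% interval -1.35 to 1.45, edgeR adjusted p = 1.00). Without SLMAP3-/- line 1 the log2 fold change was -0.49, and without SLMAP3-/- line 4 it was 0.42.

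SLMAP3-/- line 4 was the lowest of the 8 lines for Slc16a1, Car9 and Car12 and the highest for Slc4a2. The summed CPM of 16 hypoxia and glycolysis genes was also lowest there, at 1470 CPM, against 1629 to 2069 CPM in the other 7 lines. Not every gene of that list followed the sum. Vegfa was at 40.9 CPM in SLMAP3-/- line 4, above SLMAP3-/- line 1 (39.0), WT line 3 (26.5) and WT line 4 (39.6). Whether SLMAP3-/- line 4 differed in culture conditions was not tested. Over the 8 lines the log2 CPM of Slc4a2 and Slc16a1 had a Pearson r of -0.79 (Spearman rho -0.86), and that of Slc16a1 and Car12 an r of 0.67 (rho 0.71). Slc4a7 had an r of -0.74 with Slc4a4 (rho -0.74), which was -0.50 for deviations from the genotype means, and its r with the other members ran from -0.41 for Slc4a8 to 0.47 for Slc16a3. These r values are descriptions over 8 points that share the libraries and their scaling.

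**Figure D3:**
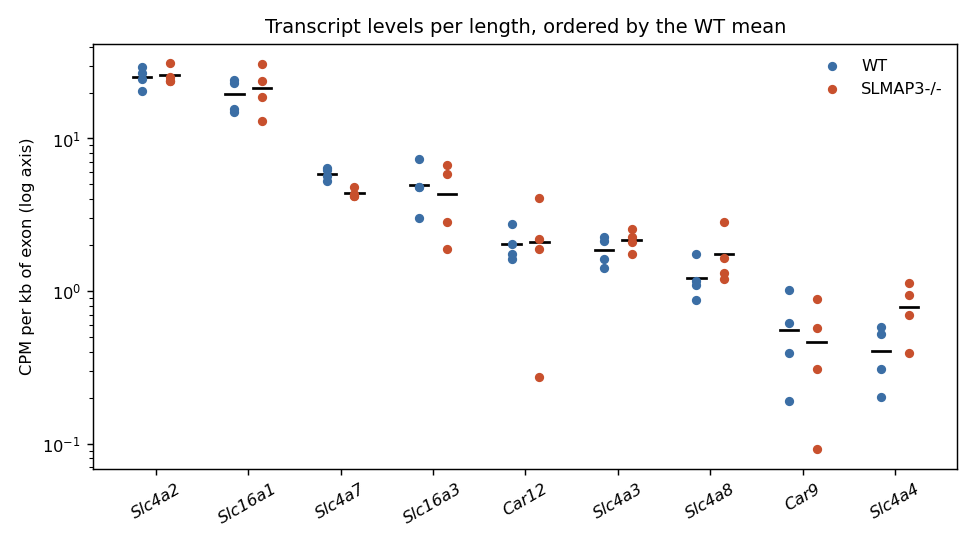
Points give CPM per kb of merged exon (log axis) of each member in the 4 WT (blue) and 4 SLMAP3-/- (orange) lines, and black lines give group means, with genes ordered by the WT mean. Slc4a2 and Slc16a1 lead, Slc4a7 comes next at 5.88 CPM per kb in WT, and Slc4a4 comes last at 0.405.

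In WT lines the order of levels per kb of merged exon ran from 25.3 down to 0.405 CPM per kb. Slc4a2 came first with 25.3 ± 3.72 CPM per kb and Slc16a1 followed with 19.5 ± 4.84, and their ranges overlapped. Slc4a7 came next with 5.88 ± 0.537 CPM per kb, clear of Slc16a1 above it but overlapping Slc16a3 at 4.99 ± 1.78. After a further gap came Car12 (2.03 ± 0.500), Slc4a3 (1.85 ± 0.393), Slc4a8 (1.22 ± 0.370), Car9 (0.553 ± 0.352) and Slc4a4 (0.405 ± 0.179), and among these 5 each overlapped the next. Knockout lines kept the first 4 places, while Slc4a3 at 2.16 ± 0.342 CPM per kb stood next to Car12 at 2.11 ± 1.56, and Slc4a4 at 0.788 ± 0.317 next to Car9 at 0.466 ± 0.346.

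The choice of length changed the levels of the genes with many annotated transcripts. With the longest annotated transcript, WT levels were 11.0 CPM per kb for Slc4a7, 49.4 for Slc4a2 and 4.16 for Car12, and the WT order of the 9 genes was the same. On that length Slc4a2 no longer overlapped Slc16a1, Slc4a7 no longer overlapped Slc16a3, Car12 no longer overlapped Slc4a3, and Slc16a3 did overlap Car12.

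The remaining genes of acid-base handling were read from 9 lists holding 127 genes, members included, of which 94 passed the filter. Of these 94, 0 were called by edgeR, and the median log2 fold change was -0.02, against -0.0014 over all tested genes. Besides Slc4a7, the genes without overlap were Atp6v0e2 and Ahcyl1 (lower in SLMAP3-/-) and Slc4a11 (higher in SLMAP3-/-). Leaving out the 9 members, that is 2 of 85 lower (2.35%, against 0.53% of all tested genes) and 1 of 85 higher (1.18%, against 0.724%). In all, 6 acid-base genes other than Slc4a7 had an unadjusted p under 0.05 in edgeR, 8 in DESeq2 and 2 in limma-voom. Over all genes the counts were 280 of 15461 in edgeR, 551 of 33816 in DESeq2 and 269 of 15461 in limma-voom. The edgeR and limma-voom fits held 94 acid-base genes, Slc4a7 among them. DESeq2 was run without that filter, and its number of acid-base genes is not given here. The lists were chosen with earlier results of these data known, so these counts are a description only. None of those acid-base genes passed the adjustment over all genes in any of these tests.

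Of the 10 Slc4 family genes 6 passed the filter, and Slc4a1, Slc4a5, Slc4a9 and Slc4a10 did not. Slc4a7 was the 1 with a log2 fold change below 0 among these 6, and the list median was 0.31. As Slc4a7 was selected on this comparison, its sign within the family is a description only. Slc4a11, a family member that conducts protons, was named after its values were seen. It was at 4.57, 4.64, 3.86 and 3.97 CPM in SLMAP3-/- lines 1 to 4 and at 3.47, 3.72, 2.67 and 3.03 CPM in WT lines 1 to 4, without overlap, with a log2 fold change of 0.40 (SE 0.19, edgeR adjusted p = 1.00).

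Regulators of the sodium bicarbonate cotransporters numbered 8, all tested, with 3 log2 fold changes above 0, 5 below and a median of -0.05. Ahcyl1 encodes IRBIT, a protein that binds and activates these cotransporters. It was at 287, 275, 285 and 283 CPM in SLMAP3-/- lines 1 to 4 and at 319, 364, 304 and 303 CPM in WT lines 1 to 4. All knockout lines were below all WT lines, with a log2 fold change of -0.19 (SE 0.087, edgeR adjusted p = 1.00). Wnk4, a kinase of the ion transport pathway, had the largest log2 fold change of the list at 1.41 (SE 0.52, edgeR adjusted p = 1.00), with 13.4 ± 9.48 CPM in SLMAP3-/- and 5.06 ± 1.80 CPM in WT, and overlapping lines. The abundant regulators Wnk1, Oxsr1 and Ahcyl2 had log2 fold changes of -0.14, 0.09 and -0.07.

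The vacuolar proton pump, which acidifies endosomes and lysosomes, had 20 of 25 genes tested, 8 with log2 fold changes above 0 and 12 below, and a median of -0.03. Its most abundant genes Atp6ap1, Atp6v0c, Atp6v1a and Atp6ap2 had log2 fold changes between -0.14 and 0.01, and that of Atp6v0a4 was highest at 0.18. Atp6v0e2, a small membrane subunit, stood apart at 3.31, 3.56, 3.26 and 3.91 CPM in SLMAP3-/- lines 1 to 4 against 7.95, 4.72, 10.5 and 5.59 CPM in WT lines 1 to 4. Here the knockout lines were tightly grouped and the WT lines were not, with a log2 fold change of -1.04 (SE 0.27, edgeR adjusted p = 1.00).

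Among the 12 tested sodium/proton exchangers and scaffolds of a list of 15, 9 log2 fold changes were above 0 and 3 below, with a median of 0.08. Chp1, which encodes a calcineurin-like protein that binds these exchangers, was at 171 ± 24.9 CPM in SLMAP3-/- and 165 ± 24.0 CPM in WT. Slc9a3r1 had a log2 fold change of -0.20, and the extremes were 0.21 for Slc9a3 and -0.79 for Slc9a9.

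Of 16 carbonic anhydrase genes 9 were tested, with 1 log2 fold change above 0 (Car12) and 8 below, and a median of -0.24. Over all tested genes 7647 were above 0 and 7814 below. No gene of the list was without overlap, where 0.53% of all tested genes were so in the lower and 0.724% in the higher direction. Car13, the most abundant, was at 27.6 ± 7.04 CPM in SLMAP3-/- and 31.1 ± 6.89 CPM in WT, and mitochondrial Car5b was at 16.1 ± 2.60 and 20.4 ± 8.95 CPM. Car11 had a log2 fold change of -0.02 and Car7 the lowest of the list at -0.50 (SE 0.49).

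Monocarboxylate transporters and chaperones numbered 13 tested of 16, 7 above 0 and 6 below, with a median of 0.03. Slc16a12 had the lowest log2 fold change at -0.83 (SE 0.94), and Emb, the chaperone embigin, was at 24.95 ± 11.0 and 24.4 ± 9.75 CPM.

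The Slc26 anion exchangers had 5 of 11 genes tested, 1 above 0 and 4 below, with a median of -0.15. Slc26a7 had the most negative log2 fold change of the acid-base lists at -2.80 (SE 1.22, edgeR adjusted p = 1.00), and WT lines 3 and 4 alone carried it. Slc26a7 was at 6.19 and 8.72 CPM in these, while WT lines 1 and 2 were at 0.210 and 0.271 CPM, within the 0.120 to 0.932 CPM of the knockouts. Slc26a2, a sulfate transporter, was at 33.2 ± 7.14 and 36.7 ± 5.54 CPM, and Slc26a11 and Slc26a6 had log2 fold changes of 0.15 and -0.07.

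Among proton sensors, 5 of 10 genes were tested, with 3 log2 fold changes above 0 and 2 below and a median of 0.10. The proton-activated chloride channel gene Pacc1 was at 11.0 ± 1.21 and 10.3 ± 2.21 CPM, Hvcn1 and Asic1 had log2 fold changes of 0.16 and -0.11, and the extremes were Asic3 at 1.32 (SE 0.63) and Gpr4 at -0.56 (SE 0.48), both of low abundance. All 16 hypoxia and glycolysis genes were tested, 6 above 0 and 10 below, with a median of -0.05. Ldha, Pgk1, Hif1a and Slc2a1 had log2 fold changes between -0.24 and -0.01, Pdk1 was highest at 0.43 (SE 0.17) and Epas1 lowest at -0.95 (SE 0.53), each with an edgeR adjusted p of 1.00.

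**Figure D4:**
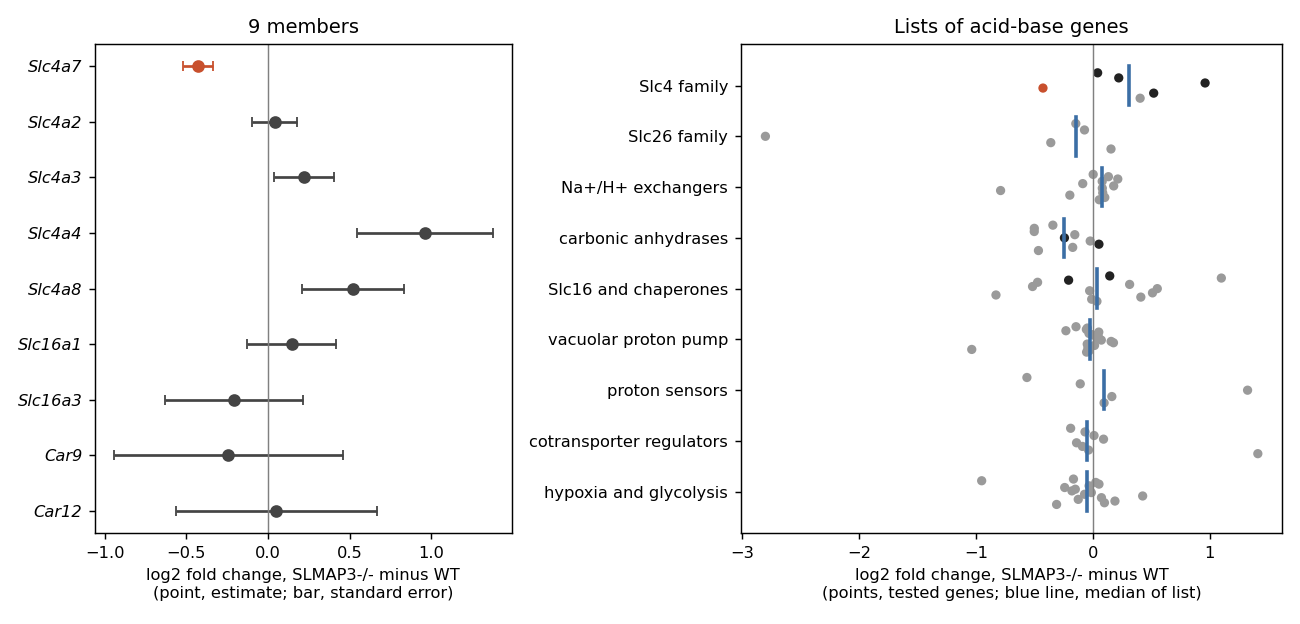
The left panel plots the log2 fold change (SLMAP3-/- minus WT, horizontal axis) of each member with its standard error, and the right panel plots every tested gene of the 9 acid-base lists (black, members; orange, Slc4a7; grey, other genes) with the list median as a blue line. List medians lie between -0.24 and 0.31. Slc4a7, which was selected on this comparison, is at -0.43. Such a selection favours a small error, so its error is not to be ranked against those of the other members.

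Genes around Slc4a7 were then read to see how the genotypes compared along the chromosome, on which Slmap also lies. Within 3 Mb of Slc4a7 12 other genes were tested, of which 0 were called and 0 were without overlap in either direction. Over all tested genes 0.00647% were called, and 0.53% were without overlap in the lower and 0.724% in the higher direction. With shares this small, counts of 0 among 12 genes say little about these neighbours. Their log2 fold changes ran from -0.36 to 0.30 with a median of 0.06, 9 above 0 and 3 below. The nearest tested gene before Slc4a7 was Il3ra, an interleukin receptor subunit gene 346 kb away, with a log2 fold change of 0.05 (SE 0.24). Psmd6 and Atxn7, further out on that side, had -0.03 (SE 0.14) and 0.10 (SE 0.13). On the other side the nearest tested gene was Oxsm, 1439 kb away, with 0.10 (SE 0.20), followed by Ngly1 with 0.08 (SE 0.12) and 5430414B19Rik, counted below 1 CPM, with 0.29 (SE 0.43).

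**Figure D5:**
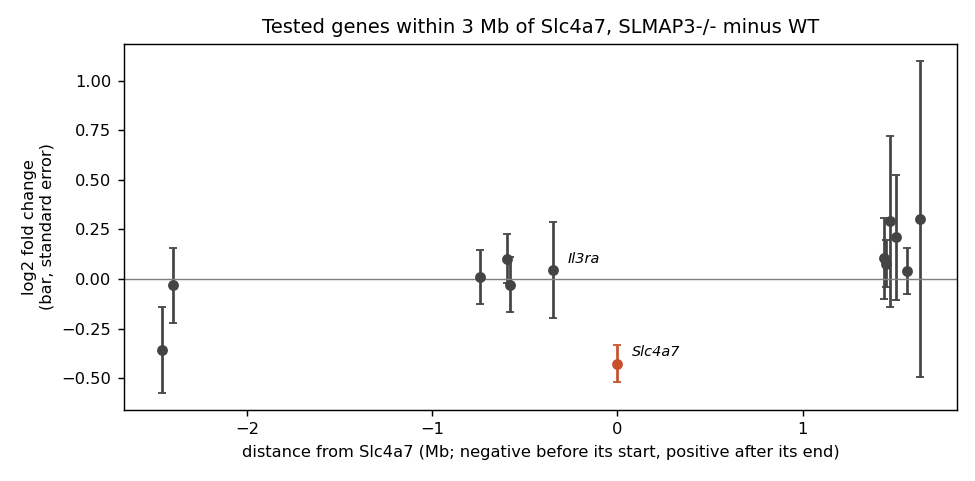
Log2 fold change (SLMAP3-/- minus WT, with standard error) of Slc4a7 (orange) and the 12 tested genes within 3 Mb (dark grey) against distance in Mb. The neighbours lie between -0.36 and 0.30. Slc4a7, which was selected on this comparison, is at -0.43, so its place below them is a description only.

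The genes whose log2 CPM followed that of Slc4a7 most closely over the 8 lines, among 12770 genes with a mean of at least 1 CPM, were Plod2, Insig2, Phf7, Dennd4c and Prkar1a. Plod2 encodes a collagen lysyl hydroxylase and had a Pearson r of 0.96 (Spearman rho 0.95), with 40.7 ± 4.97 CPM in SLMAP3-/- and 59.9 ± 10.6 CPM in WT. Insig2, an endoplasmic reticulum regulator of sterol synthesis, had an r of 0.94 (rho 0.88), with 25.3 ± 1.70 and 30.7 ± 1.70 CPM. For Phf7, Dennd4c and Prkar1a, the last a regulatory subunit of protein kinase A, r was 0.93, 0.92 and 0.91 (rho 0.90, 0.95 and 0.86).

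Part of that likeness is the difference between genotypes, since Insig2, Phf7, Dennd4c and Prkar1a were also lower in every SLMAP3-/- line than in any WT line. Without the 2 lines farthest from the median of Slc4a7, WT lines 1 and 4, r was 0.91, 0.92, 0.92, 0.91 and 0.81 in the order of the genes above. When each line was expressed as its deviation from the mean of its genotype, r was 0.91 for Plod2, 0.73 for Insig2, 0.75 for Phf7, 0.74 for Dennd4c and 0.68 for Prkar1a. On that measure 0 of these 5 genes were among the 5 most like Slc4a7, which then were Fdxr, Slc38a7, Eif2ak3, Myo18a and Kcnh2 with r from 0.94 to 0.97.

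Start-site sequences of the members were searched for the letters ACGTG on both strands, which is the core of the element bound by hypoxia-inducible factors, because Car9 and Slc16a3 are known targets of these factors. RefSeq windows of 300 bases on GRCm38.p6, 250 before and 50 after each start, were matched by symbol for all 9 members and gave 11 windows. The letters occurred in 3 of these, those of Slc16a1 with 3 matches, Slc16a3 with 2 and Car9 with 1, and in 19.6% of all 32851 windows. The 30 bases around the matches are printed to show their surroundings, 5′ to 3′ on the plus strand with matches in capitals, for Slc16a1 at chr3:104638451-104638480, Slc16a3 at chr11:120949033-120949062 and Car9 at chr4:43506995-43507024.
Slc16a1: cgcggcgccgggtCACGTGgcgggaagggg
Slc16a3: agcggtgACGTGcgcgggggACGTGccgcg
Car9: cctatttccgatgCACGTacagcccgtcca

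In Slc16a1 the capitals read as a palindrome that matches on both strands, in Car9 the match is on the minus strand, and the third match of Slc16a1 lies outside the bases shown. The window of Slc4a7 held no match, but it starts inside the gene (chr14:14718534-14718833), at an internal start and not at the first annotated one. A match of this kind is a description of letters only.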

How the data were processed

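Per the labels and the study's methods, reads from stranded mRNA libraries were assigned by the authors to the GENCODE M25 transcriptome of GRCm38 with Salmon. Each deposited value is an estimated count per gene that the authors scaled for transcript length, with no scaling between lines. The Salmon version and the use of strand are not given in the sources used here. The authors' table of their own DESeq2 comparison (fold changes, errors and p-values) was not used.

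Estimated counts were rounded, filtered with filterByExpr (minimum count 10), scaled by TMM and fitted with the quasi-likelihood test of edgeR 4.0.16 in R 4.3.3 over 15461 genes, with Benjamini-Hochberg adjustment and a threshold of 0.05. CPM uses TMM library sizes, and log2 CPM a prior count of 2. Alternatives used DESeq2 1.42.0, limma 3.58.1, other filters and scaling, a Y-linked covariate, the replicate number as a block and each line left out. The scripts were tested on simulated data. Python 3.11.15 made the summaries. Totals of 49879059 to 63322486 counts per line set the counting precision.

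Lengths and positions came from GENCODE M21 (GRCm38), matched by gene ID without version. The version differed for Slc4a7 and Slc4a4. Named genes were the 9 members, Slmap, the 4 most abundant genes and both extremes of log2 fold change in each acid-base list, the 5 genes most like Slc4a7 and the 3 nearest tested genes on each side. The members and lists were chosen with earlier results of these data known. Some genes that this rule would name are not reported here.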

Additional observations from a re-analysis of the deposited data

Results flagged for a closer look

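The Slc4a7 level of SLMAP3-/- line 3 was set apart from its group. At 73.5 CPM it was the highest of the 4 knockout lines, the others lay between 63.6 and 65.3 CPM, and its gap to the next line took 0.833 of the whole range, above Dixon's 95% critical value for 4 samples. It was the 1 such value among 20 groups examined, and chance gives about 1 in 20. Without that line the log2 fold change of Slc4a7 was -0.48.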

How the results depend on the processing

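Under 15 alternatives the log2 fold change of Slc4a7 stayed between -0.48 and -0.38 with 1 line left out (8 fits) and between -0.43 and -0.42 otherwise (7 fits). Since Slc4a7 was selected on this difference and its groups do not overlap, a stable sign follows from the selection, and these ranges are a description only. Those of Slc4a3, Slc4a4 and Slc4a8 stayed above 0 in all 15, with ranges of 0.12 to 0.33, 0.74 to 1.19 and 0.19 to 0.74 with 1 line left out. The sign turned for 5 members with 1 line left out, where the ranges were -0.057 to 0.12 for Slc4a2, -0.071 to 0.32 for Slc16a1, -0.50 to 0.041 for Slc16a3, -0.77 to 0.22 for Car9 and -0.49 to 0.42 for Car12. Car12 also turned under limma-voom (-0.40) and with the replicate block (-0.34), and the cause was not tested. Single values with a turned sign were, for Slc4a2, -0.057 without SLMAP3-/- line 4 and -0.041 without WT line 1, and for Car12 -0.046 without WT line 3 and -0.014 without WT line 4. For Slc4a7 no test is given. Among the other members and the other acid-base genes, 0 were called in any of the alternatives or at an adjusted p under 0.1.

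Over all genes the number called was 1 in the main test, 11 under DESeq2 and 0 with the replicate block, and 1 in each of the other alternatives. Same-numbered lines come from different embryos, and their deviations from the group means had correlations of -0.158, 0.0585, 0.187 and -0.00323 for numbers 1 to 4. These values gave no sign that the numbers paired the lines. Differently numbered lines were not compared in this way, and whether any lines share a litter was not examined. With the replicate block the log2 fold change of Slc4a7, for which no test is given, was -0.42. Among the remaining members and acid-base genes 0 were called. WT levels per kb moved beyond the spread between lines for Slc4a7 (11.0), Slc4a2 (49.4) and Car12 (4.16) with the longest transcript as length. The longest coding transcript, an alternative chosen after seeing the data, gave the same lengths. The 5 genes most like Slc4a7 shared 0 genes with those found from deviations. At 11 to 128 counts per line, Car9 was the member most limited by depth.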
